A study of Mus musculus with 20 samples.

Results

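Wild-type Sox2 and wild-type Sox17, each induced as a V5-tagged protein in mouse embryonic stem (ES) cells, were compared by the places in the genome where chromatin immunoprecipitation and sequencing (ChIP-seq) found them. Each protein had 2 peak lists (replicates A and B), which are 4 of the 18 lists analysed and 4 of the 20 samples of the series. The 5836 strongest peaks of each list were used, 5836 being the length of the shortest list, with strength read from the score deposited with each peak. A site of a protein was a stretch where strongest peaks of both its replicates overlapped. A site was called shared where it overlapped a site of the other protein, and specific where no peak in either whole list of the other protein overlapped it, weak peaks included. Of the 13631 merged regions that the 4 sets of strongest peaks covered, 2182 (16.0%) were Sox2-specific sites, 763 (5.60%) were Sox17-specific sites and 1009 (7.40%) were shared.

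Both lines were undifferentiated KH2 cells, an ES line built for transgenes that doxycycline switches on, and both received doxycycline at 1 µg/ml. The Sox2 libraries name an antibody to the V5 tag alone, whereas the Sox17 libraries name an antibody to Sox17 and the V5 antibody, so antibody and protein cannot be told apart between them. The other 14 lists, none of which chose the sites, were read at the sites. They comprised 2 libraries each of V5-tagged Sox2KE and Sox17EK, mutants in which a lysine of Sox2 and a glutamate of Sox17 are exchanged, and 7 of Oct4 in the 4 doxycycline-treated KH2 lines (2 per line, 1 for the Sox17 line). The remaining 3 came from F9 embryonal carcinoma cells: Oct4 and Sox17 after 1 µM retinoic acid, which turns F9 cells into primitive endoderm-like cells (F9+RA), and Oct4 in untreated F9 cells. ES cells also make their own Sox2 and Oct4. For Oct4 in ES cells the labels list V5 and Oct4 antibodies, so a peak in them may be one of the tagged Sox protein or of Oct4 and the sources cannot be told apart, while the F9 libraries name the Oct4 or the Sox17 antibody alone.

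Sox proteins bind DNA through an HMG box, mostly beside a partner protein that helps to fix the site. In pluripotent cells Sox2 pairs with the POU-domain protein Oct4 (Pou5f1) on composite elements of genes that keep the cells undifferentiated. Sox17 is a regulator of the endoderm, including the primitive endoderm that gives rise to the yolk sac, and it too can pair with Oct4, on an element with a closer spacing of the Sox and Oct4 letters.

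The whole lists held 32226 and 23924 peaks for Sox2 (replicates A and B) and 10301 and 5836 for Sox17. Read depth was unknown. Equal numbers of peaks did not have equal strength: the weakest of the 5836 peaks scored 216.6 and 174.9 in the Sox2 lists, and 75.4 and 50.03 in the Sox17 lists. The next Sox2 peaks outside scored 216.6 and 174.9, and the next Sox17 A peak 75.4, so no gap in strength marked the end of a list. The median width of these peaks was 789.5 and 804 bp for Sox2, against 1104.5 and 873 bp for Sox17. The widths did not overlap between the proteins (difference of means -192 bp; -76.3 without Sox17 replicate A and -308 without Sox17 replicate B; p = 0.333 by an exact two-sided permutation test, in which 2 against 2 libraries allow nothing lower). The labels do not state separate cultures for replicates A and B, so each p-value speaks of the spread between these samples alone, which may be technical.

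Sox2 had more reproducible sites than Sox17, and with absence read from the whole lists, of unequal length, more of them were its own. Of 4253 Sox2 sites, 2182 (51.3%, exact 95% interval 49.8 to 52.8) were specific, 1031 (24.2%, 23.0 to 25.6) were shared and 1040 (24.5%, 23.2 to 25.8) were intermediate. Of 2930 Sox17 sites, 763 (26.0%, 24.5 to 27.7) were specific, 1013 (34.6%, 32.9 to 36.3) were shared and 1154 (39.4%, 37.6 to 41.2) were intermediate. The 1031 and 1013 shared sites made up the 1009 shared regions. Shares of other libraries at shared sites were read from the Sox2 side, at the 1031 sites. An intermediate site met a peak of the other protein that was weak or was seen in 1 replicate. Of the intermediate Sox2 sites, 719 met Sox17 replicate A alone, 179 replicate B alone and 142 both. Of the intermediate Sox17 sites, 200 met Sox2 replicate A alone, 171 replicate B alone and 783 both, and 879 met none of the strongest Sox2 peaks. Most intermediate Sox17 sites thus met the weaker peaks of the long Sox2 lists alone.

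The class sizes depend by construction on the lengths of the lists, since a specific site had to be free of every peak of the other protein and the Sox2 lists are the longer ones. With absence read from the 5836 strongest peaks only, 2546 of 4253 Sox2 sites and 1642 of 2930 Sox17 sites were specific. Specific sites were then most of the sites of each protein, and their shares were much closer. Sox17-specific sites numbered 2446 without Sox17 replicate A and 2018 without Sox17 replicate B, and Sox2-specific sites numbered 3409 without Sox2 replicate B. A left-out library also changed the definition, since the presence and absence of that protein were then read from its other replicate alone.

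**Figure D1:**
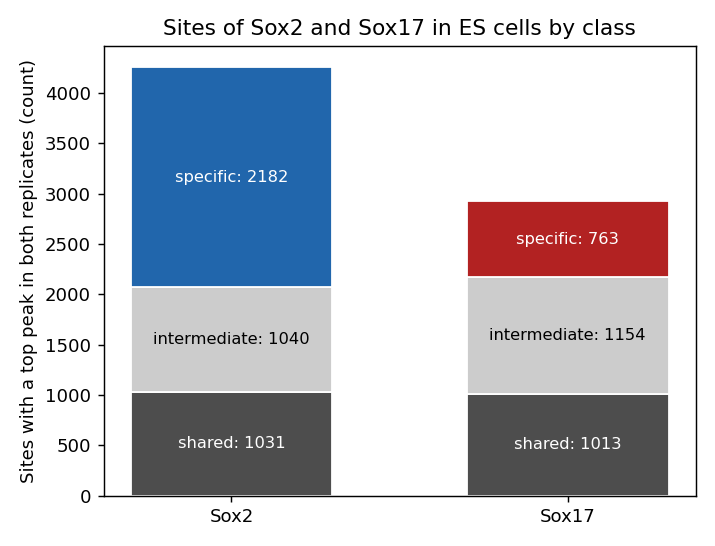
Number of sites with a strong peak in both replicates (vertical axis, count) for Sox2 (left bar) and Sox17 (right bar) in ES cells, split into specific, intermediate and shared sites. The 2182 specific sites are the largest class of Sox2, while the 763 specific sites are the smallest class of Sox17, with absence read from whole lists of unequal length.

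Shared sites were the strongest sites of both proteins. The median Sox2 score was 539 and 466 (replicates A and B) at shared sites and 372 and 289 at Sox2-specific sites. The median Sox17 score was 180 and 116 at shared sites and 140 and 95.9 at Sox17-specific sites. Shared sites were also wider than specific ones for each protein, with medians of 1013 against 889.5 bp for Sox2 and 1203 against 1088 bp for Sox17. These scores took part in choosing the sites, so they are given as a description.

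Among sites strong enough in both proteins to be shared, the order of strength was more alike within a protein than between them. Over the 1035 pairs of overlapping Sox2 and Sox17 sites, the scores of Sox2 replicates A and B had a Spearman rho of 0.815, and those of Sox17 replicates A and B a rho of 0.628. Between a Sox2 and a Sox17 library rho was 0.183 to 0.223. The points of a correlation share libraries and peak width, and no test was made of it.

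Sharing was common among the strongest peaks of both proteins and less so further down. Among the 500 strongest Sox2 peaks, 76.0% (A) and 80.6% (B) met any Sox17 peak, and among the 836 weakest of the 5836 the shares were 27.8% and 30.3%. Among the 500 strongest Sox17 peaks, 77.4% (A) and 74.2% (B) met any Sox2 peak, and among the 836 weakest 54.9% and 39.2%. These whole lists differ in length. Against the 5836 strongest peaks of the other protein, the shares were 68.8% and 73.4% of the 500 strongest Sox2 peaks, and 55.6% and 54.0% of the 500 strongest Sox17 peaks. At the weak end they were 20.2% and 25.1% for Sox2, and 22.2% and 14.4% for Sox17, so at equal length sharing declined in both proteins. Agreement with the other replicate of the same protein was 100% and 99.8% for the 500 strongest Sox2 peaks, and 97.4% and 99.2% for the 500 strongest Sox17 peaks. It was 41.0% and 40.7% at the weak end for Sox2, and 25.5% and 20.8% for Sox17.

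**Figure D2:**
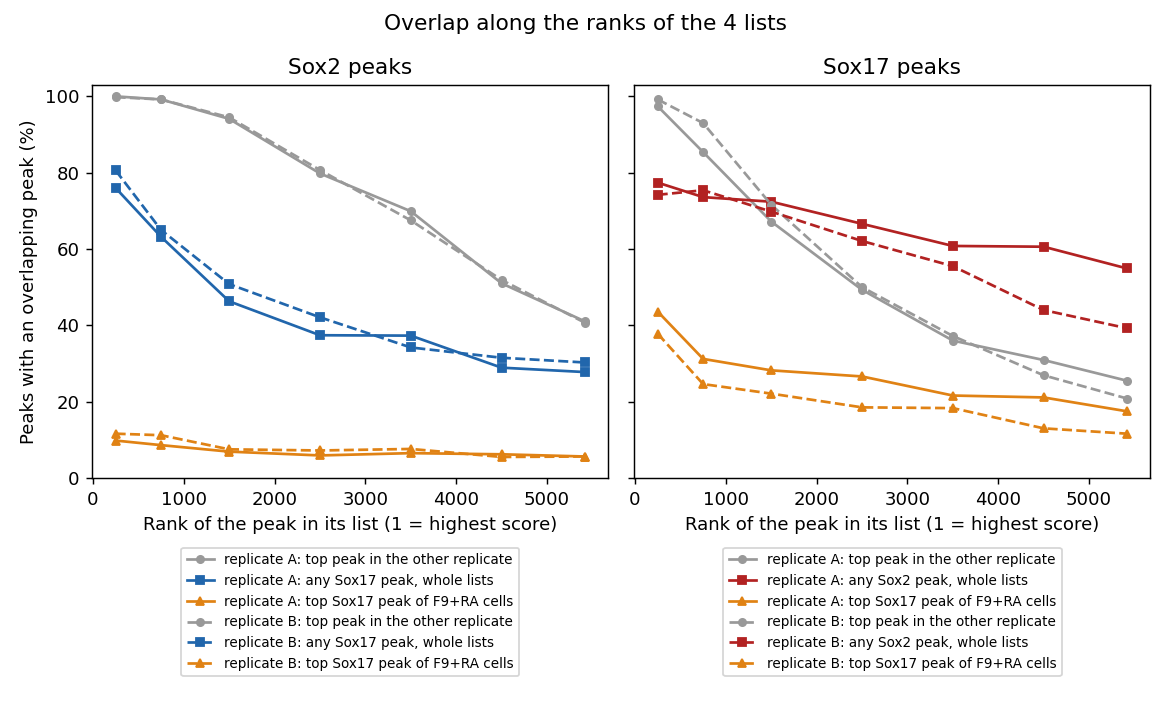
Share of peaks with an overlapping peak (vertical axis, %) against the rank of the peak in its list (horizontal axis, 1 is the highest score), for Sox2 (left) and Sox17 (right), with replicate A as solid and B as dashed lines. Blue and red show any peak of the other protein, grey a strong peak of the other replicate and orange a strong Sox17 peak of F9+RA cells, which was at 9.80% and 11.6% of the 500 strongest Sox2 peaks and at 43.6% and 37.8% of the 500 strongest Sox17 peaks.

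Sox17 of primitive endoderm-like cells was found more often at Sox17-specific sites of ES cells than at Sox2-specific ones. A Sox17 peak of F9+RA cells lay at 8.07% of Sox2-specific sites (exact 95% interval 6.96 to 9.29), at 57.4% of Sox17-specific sites (53.8 to 60.9) and at 42.3% of shared sites (39.3 to 45.4). It lay at 33.8% of all merged regions, and moving the sites by 10 kb gave 3.57% for Sox2-specific, 6.68% for Sox17-specific and 6.35% for shared sites. Intermediate sites had 21.6% (19.2 to 24.3) for Sox2, between the Sox2-specific and the shared share, and 62.8% (60.0 to 65.6) for Sox17, above the Sox17-specific share. The Sox2-specific minus Sox17-specific difference was -49.3 percentage points (95% interval -53.0 to -45.5 over sites, which covers counting error only, as do all intervals over sites here).

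Within the specific classes the shares were alike at strong and weak sites. Among Sox17-specific sites, the share was 56.9% in the 255 strongest, 59.1% in the 254 of middle rank and 56.3% in the 254 weakest. Among Sox2-specific sites it was 7.97% in the 728 strongest, 9.35% in the 727 of middle rank and 6.88% in the 727 weakest. The shares varied more in other classes. At shared sites the share was 36.9% (31.8 to 42.3) in the 344 strongest, 43.9% in the 344 of middle rank and 46.1% (40.7 to 51.5) in the 343 weakest, with intervals that overlap. At Sox2 intermediate sites it was 18.2% (14.2 to 22.6) in the 347 strongest, 19.6% in the 347 of middle rank and 27.2% (22.5 to 32.2) in the 346 weakest. Where a Sox17 peak of F9+RA cells was present, it was weaker at Sox2-specific sites, with a median at the 61.6th percentile of its list, than at Sox17-specific sites (85.7th) and shared sites (84.5th).

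Over libraries, 6.75% and 7.52% of the strongest Sox2 peaks (A and B) and 25.6% and 19.3% of the strongest Sox17 peaks overlapped 1 of the 5836 strongest Sox17 peaks of F9+RA cells. Both Sox17 libraries were above both Sox2 libraries. For the difference of -15.3 points the exact two-sided permutation test gave p = 0.333, its lowest possible value here, and 0.333 after Benjamini-Hochberg adjustment over 8 measures. The F9+RA and ES Sox17 libraries name the same Sox17 antibody, and its part in the contrast was not tested. Without Sox17 replicate A the shares were 11.7% of Sox2-specific and 38.1% of Sox17-specific sites, a difference of -26.4 points, and with only the 5836 strongest F9+RA peaks they were 1.74% and 29.1%, a difference of -27.4.

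Oct4 of F9 cells, whose libraries name the Oct4 antibody alone, was more frequent at Sox17-specific than at Sox2-specific sites after retinoic acid, while before it the interval of the difference included 0. In untreated F9 cells an Oct4 peak lay at 63.4% of Sox2-specific sites (61.4 to 65.5), at 64.2% of Sox17-specific sites (60.7 to 67.6) and at 94.9% of shared sites (93.3 to 96.1), against 72.1% of all merged regions. In F9+RA cells it lay at 56.8% of Sox2-specific sites (54.7 to 58.9), at 79.9% of Sox17-specific sites (76.9 to 82.7) and at 94.8% of shared sites (93.2 to 96.0), against 71.7% of all regions. The Sox2-specific minus Sox17-specific difference was -0.79 points before retinoic acid (95% interval -4.77 to 3.27) and -23.2 points after it (-26.7 to -19.5), and the change between the states was not tested. With 1 library per condition these intervals compare the libraries, not the conditions.

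The classes also differed in the sites with Oct4 in one of the F9 lists only. The whole Oct4 lists held 64582 peaks for F9 and 84196 for F9+RA cells, so these shares depend on unequal lengths too. They were not counted over all merged regions. An Oct4 peak of F9+RA but not of F9 cells lay at 5.91% of Sox2-specific sites (4.96 to 6.99), at 19.5% of Sox17-specific sites (16.8 to 22.5) and at 2.72% of shared sites. The reverse, an Oct4 peak of F9 but not of F9+RA cells, held for 12.6% of Sox2-specific sites (11.2 to 14.0), 3.80% of Sox17-specific sites (2.56 to 5.41) and 2.81% of shared sites. Sites with Oct4 before and after retinoic acid made up 50.9% of Sox2-specific, 60.4% of Sox17-specific and 92.0% of shared sites. Shared sites were thus mostly Oct4 sites of both states.

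The order after retinoic acid turned without Sox17 replicate A, when 63.9% of 2911 Sox2-specific and 60.2% of 2446 Sox17-specific sites had Oct4 of F9+RA cells (difference 3.72). A Sox17 site then needed a peak of replicate B alone, so the definition of a site differed as well as the library. Before retinoic acid the difference was 17.2 points without Sox17 replicate A, -12.3 without Sox17 replicate B, -12.3 without Sox2 replicate B and -4.68 without Sox2 replicate A, so no direction is given for it.

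**Figure D3:**
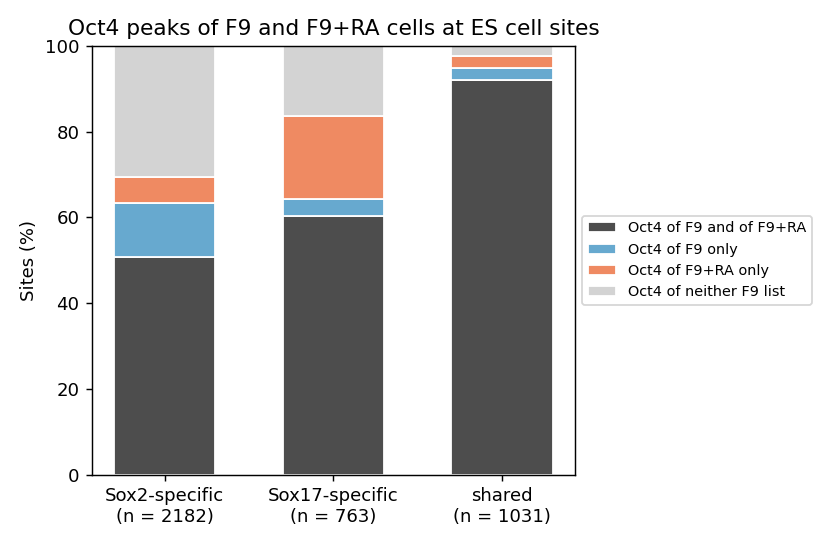
Share of sites (vertical axis, %) with an Oct4 peak in F9 and F9+RA cells, in F9 cells only, in F9+RA cells only or in neither, for 2182 Sox2-specific, 763 Sox17-specific and 1031 shared sites (read from the Sox2 side). The part found in F9+RA cells only is 19.5% of Sox17-specific sites, against 5.91% of Sox2-specific sites, and the F9+RA list is the longer one.

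Sox17 and Oct4 lay together in F9+RA cells at the Sox17-specific sites. Both were found at 7.15% of Sox2-specific sites (6.10 to 8.31), 55.0% of Sox17-specific sites (51.4 to 58.6) and 41.7% of shared sites (38.7 to 44.8). Both together were not counted over all merged regions, where Sox17 of F9+RA cells, with or without Oct4, lay at 33.8%. Of the 438 Sox17-specific sites with a Sox17 peak of F9+RA cells, 95.9% (93.6 to 97.5) had Oct4 there, and of the 325 without one, 58.5% (52.9 to 63.9) did. Oct4 of untreated F9 cells lay at 77.4% of those 438 sites and at 46.5% of those 325. Shared sites differed less in this way, with Oct4 of F9+RA cells at 98.6% of the 436 with Sox17 in F9+RA cells and at 91.9% of the 595 without.

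In the ES lines, specific sites carried Oct4 peaks more often in the line of the protein that bound them than in the line of the other. In the Sox2 line an Oct4 peak (replicates A and B) lay at 99.9% and 94.5% of Sox2-specific sites, at 58.5% and 42.5% of Sox17-specific sites and at 99.9% and 98.5% of shared sites. All merged regions had 89.3% and 76.0%. In the Sox17 line, with 1 Oct4 library, the share was 57.8% at Sox2-specific, 94.4% at Sox17-specific and 99.1% at shared sites, and 73.9% over all regions. The Sox2-specific minus Sox17-specific difference was 46.7 ± 7.48 points in the Sox2 line (SD, n = 2) and -36.5 points in the Sox17 line. The sites were chosen by Sox peaks of these same lines, and the V5 antibody is named for their Oct4 libraries too, so these shares, unlike those of F9 cells, depended in part on the choice.

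At Sox2-specific sites the split was between Oct4 in both lines and Oct4 in the Sox2 line alone. Of them 57.5% (55.4 to 59.6) had Oct4 in both Sox2-line libraries and in the Sox17 line, and 37.0% (35.0 to 39.1) in both Sox2-line libraries but not in the Sox17 line. None of the 2182 had Oct4 in the Sox17 line without any in the Sox2 line, which allows a share of up to 0.137%. Since 2180 had a peak in replicate A of the Sox2 line, almost no site was left for that group. At Sox17-specific sites 41.4% (37.9 to 45.0) had Oct4 in all 3 libraries and 36.6% (33.1 to 40.1) in the Sox17 line alone. These combinations were not counted over all merged regions. Strong Sox17-specific sites were the poorer in Oct4 of the Sox2 line. It lay at 47.1% and 25.1% of the 255 strongest, at 55.5% and 45.7% of the 254 of middle rank and at 72.8% and 56.7% of the 254 weakest. Oct4 of the Sox17 line declined over the same groups. It lay at 98.8% (96.6 to 99.8) of the strongest, 93.7% of the middle and 90.6% (86.3 to 93.9) of the weakest.

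The difference in the Sox17 line turned to 5.57 points without Sox17 replicate A, when a Sox17 site needed a peak of replicate B alone. Then 67.3% of Sox2-specific and 61.7% of Sox17-specific sites had a peak. In the Sox2 line the difference was 26.5 points with absence read from the strongest peaks and 29.1 points without Sox17 replicate B.

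Oct4 of the lines of the mutant proteins was more frequent at Sox2-specific than at Sox17-specific sites. In the Sox2KE line the shares were 88.1% and 75.1% at Sox2-specific sites, 61.6% and 47.3% at Sox17-specific sites and 98.6% and 96.1% at shared sites (replicates A and B), against 81.2% and 70.1% of all regions. In the Sox17EK line they were 78.6% and 69.0% at Sox2-specific sites, 62.8% and 55.6% at Sox17-specific sites and 98.7% and 98.2% at shared sites, against 81.1% and 74.0% of all regions. Both Sox2-specific shares were above both Sox17-specific shares in each of these lines. In the Sox17EK line the shares of both specific classes were below those of all regions. In the Sox2KE line the Sox2-specific shares were above those of all regions and the Sox17-specific shares below. Oct4 was present in 7 of 7 ES libraries at 41.1% of Sox2-specific, 37.4% of Sox17-specific and 92.9% of shared sites. It was present in 1 library alone at 0.458% of Sox2-specific, 22.9% of Sox17-specific and 0 of 1031 shared sites, which allows up to 0.291%. The shares for 1 library alone depend by construction on library numbers, since the Sox17 line has 1 Oct4 library and each other line has more. Sites with Oct4 in the Sox17 line only always count there, while sites with Oct4 in the Sox2 line only may not. No difference between the classes is read from these shares. Neither they nor the shares for 7 of 7 libraries were counted over all merged regions. The difference in the Sox2KE line was -0.23 points with only the 5836 strongest Oct4 peaks, and that in the Sox17EK line was -1.15 points without Sox17 replicate B.

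Each mutant lay more often at Sox2-specific than at Sox17-specific sites, and its Sox17-specific shares were below those of all merged regions. The Sox2-specific shares of Sox17EK and of Sox2KE replicate B were near those of all merged regions, while that of Sox2KE replicate A was above. Sox2KE peaks (A and B) were found at 77.6% and 86.4% of Sox2-specific sites, at 28.7% and 60.4% of Sox17-specific sites and at 94.0% and 97.5% of shared sites, against 64.0% and 82.5% of all regions. Sox17EK peaks were found at 61.4% and 46.7% of Sox2-specific sites, at 30.8% and 22.0% of Sox17-specific sites and at 96.9% and 88.0% of shared sites, against 58.2% and 44.6% of all regions. The difference between Sox2-specific and Sox17-specific sites was 37.5 ± 16.2 points for Sox2KE and 27.6 ± 4.13 points for Sox17EK (SD, n = 2 each). Of Sox17-specific sites 33.8% (30.5 to 37.3) had a peak in none of the 4 mutant libraries, of Sox2-specific sites 2.11% (1.55 to 2.80) and of shared sites 0.0970%. This combination was not counted over all merged regions. A Sox17-specific site had to be free of even weak Sox2 peaks, and with absence read from the strongest peaks the differences were 17.0 points for Sox2KE and 10.4 points for Sox17EK. Without Sox2 replicate B the Sox17EK difference was 16.0 points, without Sox2 replicate A 18.4 and without Sox17 replicate A 42.9.

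Among Sox2-specific sites, the mutants went with Oct4 of F9 cells in opposite ways. Sox17EK lay at 79.8% and 62.1% of the 1384 Sox2-specific sites with an Oct4 peak of F9 cells, and at 29.4% and 20.1% of the 798 without one. Sox2KE lay at 73.8% and 84.0% of those with, and at 84.1% and 90.6% of those without. The Sox2-specific sites that lacked Oct4 in F9 cells also mostly lacked it in the Sox17 line, at 19.4% against 80.0% of those with an F9 peak, while Oct4 of the Sox2 line was at 99.7% and 87.5% of them. Sox17-specific sites behaved differently for Sox2KE, which lay at 36.7% and 75.3% of the 490 with an Oct4 peak of F9 cells and at 14.3% and 33.7% of the 273 without. These splits were chosen after the values were seen, and no test was made of them.

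**Figure D4:**
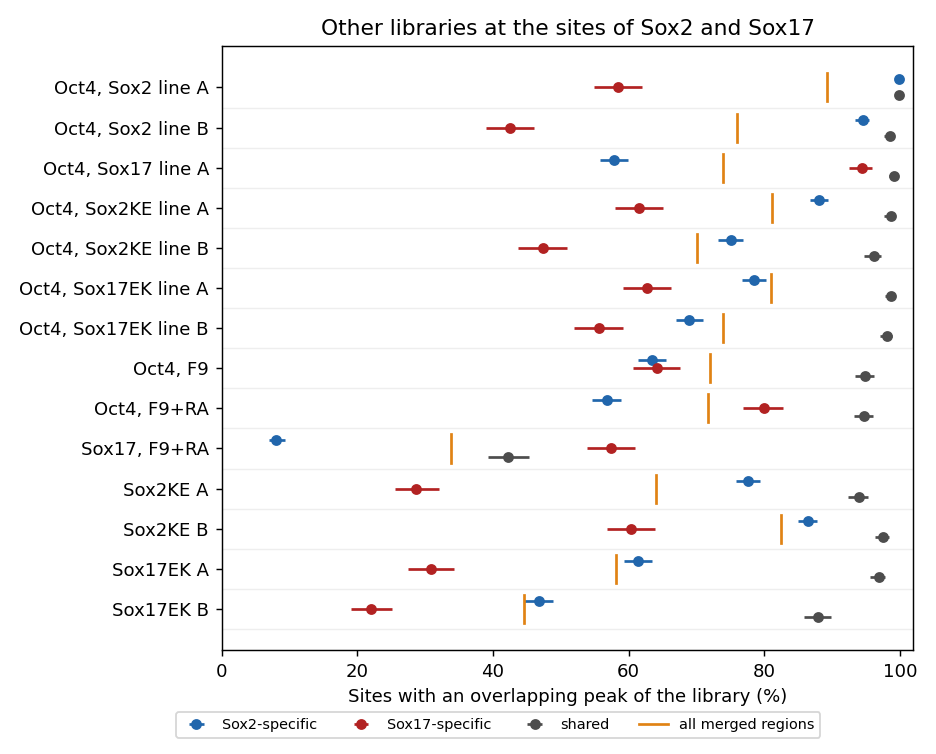
Share of Sox2-specific (blue), Sox17-specific (red) and shared (grey) sites with an overlapping peak of each other library (horizontal axis, %), with exact 95% intervals as bars, and the share over all merged regions as an orange line. Shared sites are highest except for Oct4 of the Sox2 line A, where they and Sox2-specific sites both have 99.9%, and Sox17 of F9+RA cells, where Sox17-specific sites reach 57.4% and shared sites 42.3%.

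The same measures were taken over the 5836 strongest peaks of each wild-type library, without classes. Oct4 of the Sox2 line met 55.3% and 56.9% of Sox2 peaks against 35.8% and 30.0% of Sox17 peaks (difference 23.2 points), and Oct4 of the Sox17 line 38.4% and 39.5% against 49.7% and 41.2% (-6.48 points). Oct4 of F9 cells met 30.6% and 33.0% of Sox2 peaks against 30.2% and 24.8% of Sox17 peaks (4.26 points), and Oct4 of F9+RA cells 21.7% and 24.1% against 34.5% and 26.9% (-7.75 points). Sox2KE met 44.5% and 45.8% of Sox2 peaks against 31.4% and 26.6% of Sox17 peaks (16.1 points), and Sox17EK 40.7% and 41.4% against 27.7% and 25.5% (14.5 points). In all these measures the Sox2 libraries and the Sox17 libraries did not overlap. By exact two-sided permutation every p was 0.333, before and after adjustment over 8 measures, and with 2 libraries a side none could pass a threshold of 0.05. Leaving out Sox17 replicate A or B gave -2.21 or -10.7 for Oct4 of the Sox17 line, -3.96 or -11.5 for Oct4 of F9+RA cells and 6.92 or 1.59 for Oct4 of F9 cells. At a score of 100 or more, in lists of unequal length, the differences were 0.84 for Oct4 of the Sox2 line, -42.4 for Oct4 of the Sox17 line, -33.3 for Oct4 of F9+RA cells and -27.4 for Sox17 of F9+RA cells, and those of Oct4 of F9 cells (-19.6), Sox2KE (-2.46) and Sox17EK (-11.1) turned. With all peaks, also of unequal number, the differences turned for Oct4 of the Sox2 line (-3.23), Oct4 of F9 cells (-19.4), Sox2KE (-3.87) and Sox17EK (-13.1).

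The 10 strongest sites of each class, by mean rank in the lists of the protein or proteins that bound them, are given by position in mouse build mm9. The strongest Sox2-specific site lay on chromosome 3 at 83386044 to 83387820, with Sox2 scores of 3100 and 3167. Sox2KE scored 2321 and 3100 there and Sox17EK 265 in replicate A alone. Oct4 scored 3100 and 2397 in the Sox2 line, 391 in the Sox17 line, 305 in F9 cells and 372 in F9+RA cells. All Oct4 libraries of ES cells, and those of both states of F9 cells, thus had a peak there.

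The next Sox2-specific site, on chromosome 4 at 53142843 to 53144417, had Sox2 scores of 2033 and 2554. Its Sox2KE scores were 3100 and 2790, and neither Sox17EK library had a peak. Oct4 scored 287 and 86.6 in the Sox2 line and 948 and 158 in the Sox2KE line. No Oct4 peak lay there in the Sox17EK line, the Sox17 line or untreated F9 cells. The site of chromosome 14 at 73675693 to 73676381 was similar, with Sox2 scores of 1322 and 975, Sox2KE scores of 1771 and 2314, Oct4 in the Sox2 and Sox2KE lines alone and no peak in any F9 library. The eighth in strength, also on chromosome 14, at 67381045 to 67382093, was the one of the 10 without Sox2KE. Its Sox17EK scores were 831 and 841, and Oct4 scored 1333 in the Sox17 line. The 10 Sox2-specific sites thus differed among themselves in which mutant bound them. A Sox17 peak of F9+RA cells lay at 1 of the 10, with a score of 54.3.

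The 10 strongest Sox17-specific sites all had a Sox17 peak and an Oct4 peak in F9+RA cells and an Oct4 peak in the Sox17 line. Their F9+RA scores were 74.6 to 3100 for Sox17 and 324 to 3122 for Oct4. Oct4 of untreated F9 cells lay at 8 of them, with scores of 66.3 to 824. The first, on chromosome 11 at 43290720 to 43291951, scored 3100 and 1312 for Sox17 in ES cells, and no mutant library had a peak there. A site on chromosome 7 at 106574678 to 106575871 had ES Sox17 scores of 1440 and 1328, and 161 after retinoic acid in F9 cells. Its Oct4 score was 1662 in the Sox17 line, 182 in F9 and 446 in F9+RA cells, and 61.4 in replicate A of the Sox17EK line, the last ES list with an Oct4 peak there. A site on chromosome 8 at 117574891 to 117575975 had ES Sox17 scores of 1205 and 1391, and 1232 after retinoic acid in F9 cells. There Oct4 scored 1075 in the Sox17 line, 1361 in F9+RA and 66.3 in untreated F9 cells, and no other ES list had an Oct4 peak. Of the 10 sites, 1 had Sox2KE replicate A, 3 had Sox2KE replicate B, and 1 had each Sox17EK replicate.

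Exceptions among these 10 were sites with Oct4 in every ES library. The site on chromosome 1 at 57390111 to 57391383 had Sox17 scores of 1275 and 794, Sox2KE 147 and Sox17EK 81.7, in replicate B of each mutant. Oct4 scored 174 and 72.5 in the Sox2 line and 1386 in the Sox17 line. The site on chromosome 8 at 110000309 to 110001468 had Sox17 scores of 1499 and 1034, with Oct4 at 157 and 73.9 in the Sox2 line and 1029 in the Sox17 line.

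The 10 strongest shared sites had a peak of every mutant and of every Oct4 library. A Sox17 peak of F9+RA cells lay at 5 of them. On chromosome 1 at 135388148 to 135391177 the Sox2 scores were 3191 and 3100 and the Sox17 scores 1310 and 921. On chromosome 14 at 118628468 to 118632697 the Sox2 scores were 3100 and 3100 and the Sox17 scores 961 and 1191, with Oct4 at 1045 in F9 cells and 169 in F9+RA cells, and no Sox17 peak in F9+RA cells. The first by rank, on chromosome 17 at 39979778 to 39985942, spanned 6165 bp and scored 3100 in every ES library, whichever protein was tagged, a value at which the highest scores of several lists gather. What lies there was not looked up, and whether repeated sequence gives this score was not tested, so it is not given as a binding site of either protein.

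**Figure D5:**
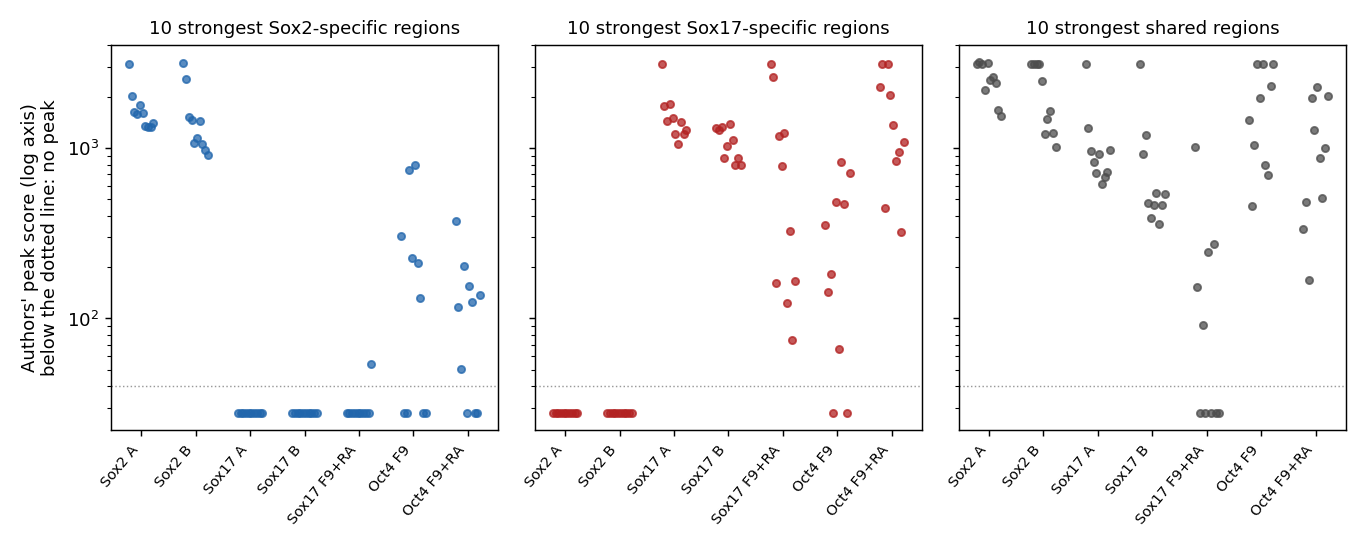
Peak scores as deposited by the authors (vertical log axis) at the 10 strongest Sox2-specific (left), Sox17-specific (middle) and shared sites (right), in the Sox2 and Sox17 libraries of ES cells and in the 3 F9 libraries, with sites that have no peak drawn below the dotted line. Each point is 1 site, and scores of different lists are not on 1 common scale. Sox17 of F9+RA cells has a peak at 1 Sox2-specific, 10 Sox17-specific and 5 shared sites.

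The median distance to the nearest shared site was 725 kb for Sox2-specific and 654 kb for Sox17-specific sites, and 9.12% and 10.4% lay within 50 kb of one. The nearest strong peak of the other protein lay at a median of 67.2 kb from a Sox2-specific and 75.2 kb from a Sox17-specific site. It lay within 10 kb for 16.5% (14.9 to 18.1) of Sox2-specific and 13.4% (11.0 to 16.0) of Sox17-specific sites. Distances were not taken for all merged regions, so no clustering or avoidance is read from them. Chromosome 1 held 11.0% of Sox2-specific, 10.6% of Sox17-specific and 13.5% of shared sites, against 11.0% of all merged regions, so the specific shares were at the background. Chromosome 8 held 6.00% (5.04 to 7.08) of Sox2-specific sites and 9.44% (7.46 to 11.7) of Sox17-specific sites, against 8.34% of all merged regions. All strongest peaks went the same way there, with 6.91% and 7.13% of Sox2 and 9.44% and 9.42% of Sox17 peaks. The X chromosome held 1.70% (1.20 to 2.33) of Sox2-specific and 0.524% (0.143 to 1.34) of Sox17-specific sites, against 1.03% of all merged regions. Of the strongest peaks it held 1.41% and 1.44% for Sox2, and 0.514% and 0.531% for Sox17.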

How the data were processed

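ChIP-seq was done on KH2 ES and F9 cells, per the labels' protocols. The authors deposited 1 peak list per sample for 18 of 20 samples, the 2 mock samples being not analysed here. Each line gives chromosome, start, end (positions in bp, build mm9 per the submitters' processing notes), a peak name with the MACS prefix and a score. The deposited score was read as 10 times −log10 p, on the scale MACS writes, an inference from lowest values near 50. Starts were taken to count from 0 and are printed from 1. For aligner, caller settings and control, the sources used here give nothing.

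Peaks were ranked by score, overlap meant at least 1 bp, and site classes were formed as described. Exact Clopper-Pearson 95% intervals and limits of a zero (3 counts) cover counting error only. Between libraries, exact two-sided permutation tests were used with Benjamini-Hochberg adjustment. The regions named are the 10 best mean ranks of each class. The matching and the site classes were checked on simulated data, and the permutation test on a small case with a known answer. Replicate letters did not pair samples. Alternatives varied overlap, list length, score minimum, presence, absence, peak window and left-out libraries. The planned motif and gene-neighbourhood comparisons were not run, since the gene table used here is of build GRCm38 and the lists are of mm9, so positions stand in place of gene names. The comparison and the lists were chosen with earlier results of these data known. Python 3.11.15, NumPy 2.4.6, pandas 2.3.3, SciPy 1.17.1 and Matplotlib 3.10.9 were used.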

Additional observations from a re-analysis of the deposited data

Results flagged for a closer look

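The Oct4 share of Sox2-specific minus that of Sox17-specific sites had opposite signs in the lines of the wild-type proteins. It was 41.5 and 52.0 points in the 2 Oct4 libraries of the Sox2 line and -36.5 points in the 1 library of the Sox17 line, so that the lines differed by 83.3 points. The difference was not tested. The sites were chosen by Sox peaks of the same lines, the labels name V5 beside the Oct4 antibody, and without Sox17 replicate A the value of the Sox17 line was 5.57 points. A Sox17 site then needed a peak of replicate B alone.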

How the results depend on the processing

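Differences are Sox2 minus Sox17, or Sox2-specific minus Sox17-specific, in percentage points. Overlap by at least 50% of the shorter interval changed no direction and moved no count by over 1.5 times. With all peaks the differences over libraries became -3.23 (Oct4 of the Sox2 line), -19.4 (Oct4 of F9), -3.87 (Sox2KE) and -13.1 (Sox17EK), and with a score of 100 or more -19.6 (Oct4 of F9), -2.46 (Sox2KE) and -11.1 (Sox17EK), in lists of unequal length. Numbers of Sox2-specific, Sox17-specific and shared sites were 159, 157 and 139 with the 1000 strongest peaks and 883, 390 and 478 with the 3000 strongest, where fewer peaks enter by construction. With all peaks 12526 were Sox2-specific and 2122 shared. With a score of 100 or more 7239 were Sox2-specific and 472 Sox17-specific. With midpoints within 200 bp 642 were shared. With absence read from the strongest peaks 1642 were Sox17-specific. Presence in at least 1 replicate gave 4459 Sox2-specific, 3592 Sox17-specific and 2319 shared sites. Leaving out 1 library gave 2365 to 3409 Sox2-specific, 934 to 2446 Sox17-specific and 1098 to 1364 shared sites. A site of the protein with the left-out library then needed a peak of its other replicate alone.

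At the sites, alternatives were the strongest peaks of the other library, midpoints within 200 bp and, chosen after seeing the data, 400 bp windows, absence read from the strongest peaks, sites among the 1000 strongest, and left-out libraries. Moves were, for Oct4 of the Sox2 line, 26.5 (absence), 67.5 (1000 strongest) and 29.1 to 54.1 (left-out libraries). Oct4 of the Sox17 line gave -18.5 (strongest peaks), -29.3 (midpoints), -33.7 (windows), -33.4 (absence) and -42.9 to 5.57 (left-out). Oct4 of the Sox2KE line gave -0.23 (strongest peaks), 31.6 (midpoints), 29.7 (windows), 11.8 (absence), 49.5 (1000 strongest) and 11.9 to 38.2 (left-out). Oct4 of the Sox17EK line gave 20.4 (midpoints), 17.2 (windows), -0.13 (absence), 32.3 (1000 strongest) and -1.15 to 26.7 (left-out). Oct4 of F9 cells gave 8.80 (strongest peaks), 8.34 (midpoints), 4.59 (windows), -10.2 (absence), 7.10 (1000 strongest) and -12.3 to 17.2 (left-out). Oct4 of F9+RA cells gave -14.4 (strongest peaks), -14.2 (midpoints) and -31.9 to 3.72 (left-out). Sox17 of F9+RA cells gave -27.4 (strongest peaks), -36.2 (midpoints), -44.9 (windows) and -50.6 to -26.4 (left-out). Sox2KE gave 17.0 (absence), 56.1 (1000 strongest) and 27.5 to 46.7 (left-out). Sox17EK gave 32.0 (midpoints), 10.4 (absence), 45.6 (1000 strongest) and 16.0 to 42.9 (left-out). The cause of these moves was not tested.

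A replicate block (A with A, B with B) gave means over the letters of 3918.5 Sox2-specific, 2612.5 Sox17-specific and 1571.5 shared sites, since each letter then needs 1 replicate. It left each difference over libraries as it was, with an exact sign-flip permutation p of 0.5, the smallest 2 letters allow. The labels do not pair the letters, and the A minus B differences of log10 scores of Sox2 and Sox17 had a Pearson r of 0.0585 over 1035 pairs of sites. Depth is unknown, so a missing peak in the shorter Sox17 lists may be a weak one.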
